A study of Mus musculus with 8 samples.

Results

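The genes described are 10 lineage markers of the rare granulocytes of blood, 5 of eosinophils (Ccr3, Il5ra, Prg2, Epx and Alox15) and 5 of basophils (Mcpt8, Fcer1a, Ms4a2, Cpa3 and Hdc), out of 21878 genes in the deposited count table. They were chosen by name, with earlier results of these data known. RNA was sequenced from 8 samples of peripheral blood of female wild-type C57BL/6 mice, 6 to 8 weeks old. The 4 samples of the stress group came from mice restrained for 6 hours in a ventilated tube without food or water, and the 4 of the control group from littermates that stayed in their cage, also without food or water. The comparison addresses how acute restraint changes the expression of these markers in circulating blood, where all the blood cells were lysed together. Of the 10 markers, 6 passed the filter of at least 10 counts in at least 4 samples and were tested among 11718 genes, namely Ccr3, Il5ra, Alox15, Ms4a2, Cpa3 and Hdc. The markers Prg2, Epx, Mcpt8 and Fcer1a did not pass it and are described by their counts.

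Eosinophils mature in the bone marrow under IL-5, which acts through the receptor chain encoded by Il5ra, and follow eotaxins into tissue through the chemokine receptor encoded by Ccr3. Their granules hold the major basic protein encoded by Prg2 and the peroxidase encoded by Epx, and Alox15 encodes a lipoxygenase that makes lipid mediators. Basophils carry the high-affinity IgE receptor, whose alpha and beta chains are encoded by Fcer1a and Ms4a2, and store the protease encoded by Mcpt8 and the carboxypeptidase encoded by Cpa3. Hdc encodes histidine decarboxylase, the enzyme that makes histamine. Granule genes of eosinophils are transcribed mostly while the cells still mature in the marrow. Mature eosinophils in blood can thus hold the protein with little of the mRNA.

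In neither marker list did the fitted changes of the tested genes share a direction. Among the basophil markers, Hdc rose about 3.41-fold by the ratio of the group means in CPM (counts scaled to the size of the library), while Ms4a2 and Cpa3, the other tested basophil genes, had lower means in the stress group and did not pass the test. Among the eosinophil markers, Il5ra fell by 0.80 ± 0.16 on the log2 scale (SE), while Ccr3 and Alox15 did not pass the test in either direction. The deposited values are whole-number read counts, and CPM values are scaled by the library size after TMM normalization, a scaling that takes most genes as unchanged. The study's own thresholds decided which genes were called, namely an adjusted p below 0.01 together with a log2 fold change of more than 1 in size. By this rule 1 of the 6 tested markers was called higher (Hdc), against 1.69% of all tested genes, and 0 were called lower, against 0.0171% (1 was lower at an unadjusted p below 0.05, and DESeq2 also called 0 lower). At an adjusted p below 0.05 alone, 1 marker was higher (Hdc), against 10.4% of all tested genes, and 1 was lower (Il5ra), against 3.69%. The fitted change was above 0 in 3 of the 6, against 47.1% of all tested genes. In whole blood, fewer cells of a type and less RNA per cell cannot be told apart. Neutrophils also transcribe Hdc, and their part in its rise was not tested.

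The libraries differed in depth and in composition between the groups. The total count was 31471145 to 39014775 in the control group and 25978683 to 29655725 in the stress group, of which haemoglobin genes took 51.9% to 63.8% and 61.2% to 75.5%. The counts left outside the haemoglobin genes were 11409246 to 18771951 per control library and 6352711 to 11007593 per stress library, with the fewest in stress replicate 3. The limit that a count of 0 allows, 3 counts, equals 0.0434 to 0.228 CPM across the libraries and covers counting error only. Among counts from 1 to 50, 63.0% to 64.9% per library were even numbers, so the lowest counts may not come from independent reads, which was not tested. The labels do not say whether each sample is a separate mouse, so the p-values measure only the spread between these samples, which may be technical.

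Hdc was the marker with the largest fitted change and the only one called. Its levels were 11.4, 9.06, 5.54 and 13.9 CPM in control replicates 1 to 4 and 34.4, 31.4, 32.9 and 37.7 CPM in stress replicates 1 to 4. All 4 stress samples were above the highest control sample. On the TMM scale they also lay closer together, with 34.1 ± 2.69 CPM (SD, n = 4) against 9.99 ± 3.58 CPM (SD, n = 4). The fitted log2 fold change was 1.78 ± 0.22 (SE, edgeR, adjusted p = 0.00105). Of the tested genes, 11.1% had groups that did not overlap with the stress group above. In raw counts the groups did overlap, since stress replicate 3, the shallowest library, held 433 Hdc counts and the control libraries held 383 to 468, so the separation in that library rests on the scaling. The stress libraries held 433 to 1176 counts, a wider range than in the control group. The closeness of the stress samples thus rests on the scaling too. Without any 1 of the 8 libraries the log2 fold change stayed between 1.58 and 2.01, and the highest adjusted p was 0.00993.

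Il5ra, the marker with the second largest number of counts, moved the other way. Its levels were 5.92, 6.21, 6.16 and 5.80 CPM in the control samples and 4.15, 2.92, 2.73 and 3.84 CPM in the stress samples. On the TMM scale the 4 control samples were within a narrow band, 6.02 ± 0.193 CPM (SD, n = 4). All 4 stress samples lay below it, at 3.41 ± 0.690 CPM (SD, n = 4). Groups that did not overlap with the stress group below were found in 9.88% of the tested genes. The log2 fold change of -0.80 ± 0.16 (SE, edgeR, adjusted p = 0.00626) was under the fold threshold, so Il5ra was not called. Raw counts, which also carry the difference in depth, were 184 to 426 in the control group and 36 to 120 in the stress group. With each library left out in turn, the log2 fold change lay between -0.88 and -0.71 with adjusted p from 0.00812 to 0.0287.

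The sequences before the start sites of Hdc and Il5ra are shown because these 2 genes passed the test in opposite directions, and that of Ms4a2 because it stands for the IgE receptor. Each is the 250 bases upstream of the gene's start in RefSeq on GRCm38, on the minus strand of the chromosome, and reads 5′ to 3′ along the gene. Capitals mark the word AGATAA, its variant TGATAA, and the like words that end in G, written AGATAG when they begin with A and otherwise TGATAG, all 4 being forms of the motif bound by the GATA factors of basophils and eosinophils. They also mark AGAACA, one arm of the glucocorticoid response element. Both strands were searched, and a match on the other strand is printed as its reverse complement, TTATCT for the first word and TGTTCT for the last. No marked words overlap.
Hdc promoter, chr2:126618679-126618928: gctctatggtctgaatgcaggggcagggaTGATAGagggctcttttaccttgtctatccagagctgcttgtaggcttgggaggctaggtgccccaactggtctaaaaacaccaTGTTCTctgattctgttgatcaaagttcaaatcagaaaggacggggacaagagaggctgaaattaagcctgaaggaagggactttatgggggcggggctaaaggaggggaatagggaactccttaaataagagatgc
Il5ra promoter, chr6:106749038-106749287: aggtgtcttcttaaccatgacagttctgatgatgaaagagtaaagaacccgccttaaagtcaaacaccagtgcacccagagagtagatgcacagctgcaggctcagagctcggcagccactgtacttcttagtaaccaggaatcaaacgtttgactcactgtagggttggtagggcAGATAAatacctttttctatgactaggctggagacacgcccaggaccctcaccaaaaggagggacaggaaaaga
Ms4a2 promoter, chr19:11623720-11623969: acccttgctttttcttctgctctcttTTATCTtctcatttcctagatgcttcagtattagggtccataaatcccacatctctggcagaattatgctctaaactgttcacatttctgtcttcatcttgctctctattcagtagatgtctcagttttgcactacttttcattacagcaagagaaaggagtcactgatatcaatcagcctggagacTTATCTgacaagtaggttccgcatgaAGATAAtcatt
A promoter sequence was matched for 8 of the 10 markers. At least 1 of the GATA words was in 6 of these 8 promoters, Ccr3, Il5ra, Fcer1a, Ms4a2, Cpa3 and Hdc, and in 26.5% of 32851 RefSeq promoters of the same length. Ms4a2 held 3 of them, starting 224, 37 and 11 bases before the start. Il5ra held 1 at 74 bases, and Hdc held 1 at 221 bases. AGAACA was in the promoter of Hdc alone, on the strand opposite to the gene and 137 bases before the start, and in 16.1% of all promoters. A match is a description of the letters and does not show that a factor binds there. Hdc lies on chromosome 2 from 126593667 to 126619299 (GRCm38, GENCODE M21 annotation) and Il5ra on chromosome 6 from 106710357 to 106749037, both on the minus strand. The printed Hdc window falls inside the span of the longer GENCODE gene model but in no annotated exon, and no marker shared exon positions with another gene.

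**Figure D1:**
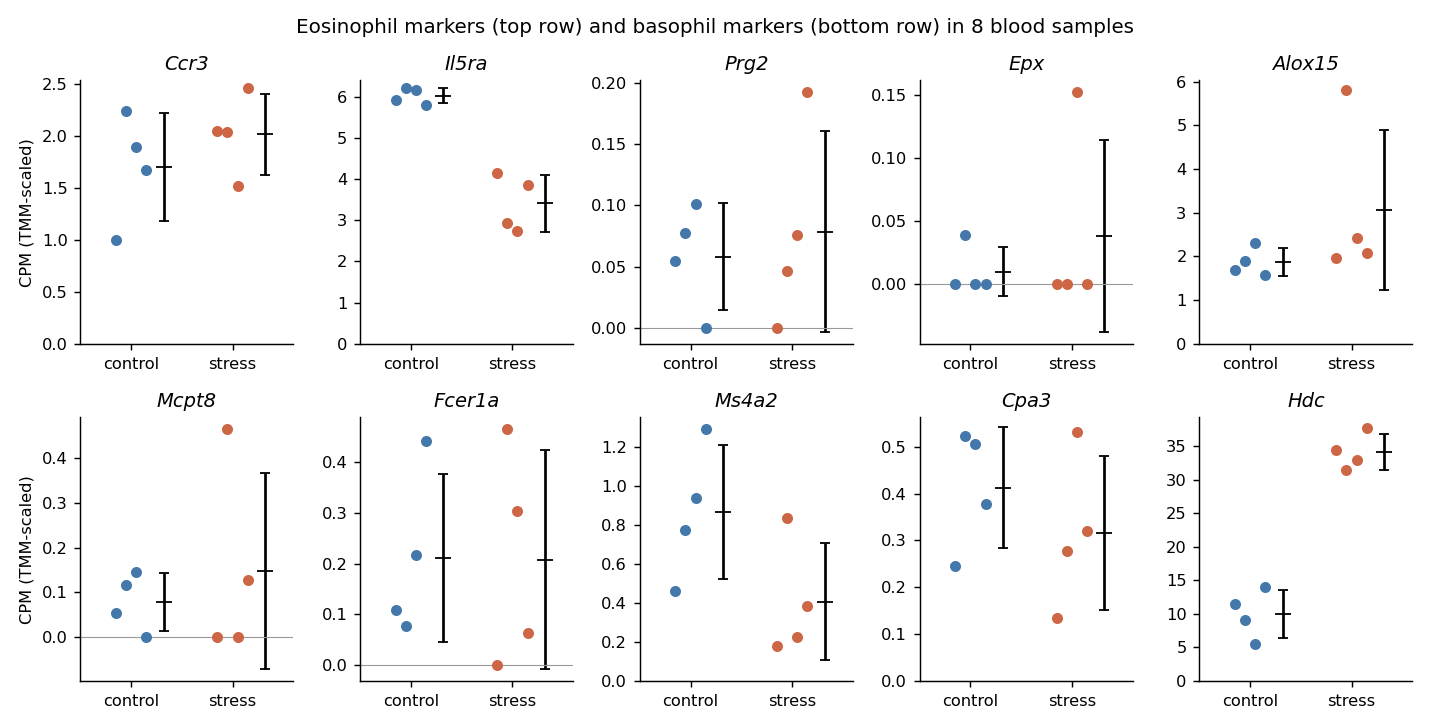
Level of each of the 10 markers in CPM on the TMM-scaled library size (y axis, 1 panel per gene with its own scale) in the 4 control and 4 stress samples; points are samples and bars are the mean with its SD, which can reach below 0 for scarce genes. The Hdc groups are apart with stress above (34.1 against 9.99 CPM on average), the Il5ra groups are apart with stress below (3.41 against 6.02 CPM), and the other groups overlap.

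The remaining eosinophil markers did not separate the groups. The eotaxin receptor gene Ccr3 measured 1.01, 2.24, 1.89 and 1.67 CPM in the control samples and 2.05, 2.04, 1.52 and 2.47 CPM in the stress samples. These ranges overlapped, and the log2 fold change was 0.25 ± 0.27 (SE, edgeR, adjusted p = 0.554). The lipoxygenase gene Alox15 measured 1.68, 1.90, 2.30 and 1.58 CPM in the control samples and 1.96, 5.80, 2.43 and 2.08 CPM in the stress samples. Its log2 fold change of 0.70 ± 0.32 (SE, edgeR, adjusted p = 0.157) owed much of its size to stress replicate 2, and without that library it was 0.21 with an adjusted p of 0.571. The granule genes were scarcely seen. Prg2 had 2, 4, 7 and 0 counts in the control samples and 0, 1, 1 and 6 in the stress samples, and Epx had 2 counts in control replicate 2, 2 in stress replicate 3 and 0 in the other 6 libraries. At this depth a change in Prg2 or Epx was not detectable. Thus the 5 eosinophil markers were read mainly from the receptor genes and Alox15, and the 2 genes that define the eosinophil granule were at or near 0.

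The basophil markers other than Hdc were low in all 8 libraries. Ms4a2, which encodes the beta chain of the IgE receptor, measured 0.462, 0.774, 0.939 and 1.29 CPM in the control samples and 0.178, 0.835, 0.228 and 0.384 CPM in the stress samples. In 3 of the 4 stress samples it was below every control sample, but stress replicate 2 lay within the control range. Its log2 fold change was -1.05 ± 0.49 (SE, edgeR, adjusted p = 0.164), and it ran from -1.61 without stress replicate 2 to -0.77 without stress replicate 1. The carboxypeptidase gene Cpa3 measured 0.245, 0.522, 0.506 and 0.378 CPM in the control samples and 0.134, 0.278, 0.531 and 0.320 CPM in the stress samples. These ranges overlapped, and the log2 fold change was -0.48 ± 0.49 (SE, edgeR, adjusted p = 0.543). Mcpt8, a protease gene taken as specific to basophils in the mouse, had 2, 6, 10 and 0 counts in the control samples and 0, 10, 0 and 4 in the stress samples. Fcer1a, the alpha chain of the IgE receptor, had 4, 4, 15 and 14 counts in the control samples and 0, 10, 4 and 2 in the stress samples. When all genes with a count were fitted, Mcpt8 had a log2 fold change of 0.85 ± 1.15 (SE, edgeR, adjusted p = 0.691) and Fcer1a one of -0.06 ± 0.91 (SE, edgeR, adjusted p = 0.98), errors too wide to give either a direction.

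A single gene carried most of the basophil marker counts in all 8 libraries. Hdc took 75.4% to 92.9% of the summed counts of the 5 basophil markers in the control samples and 93.9% to 99.1% in the stress samples. The sum of the 5 was 7.34 to 16.1 CPM in the control group and 33.4 to 38.5 CPM in the stress group, and without Hdc it was 0.870 to 2.11 CPM and 0.312 to 2.04 CPM, which overlap. These sums without Hdc rest on 32 to 125 counts per control library and 7 to 44 per stress library. Among the eosinophil markers, Il5ra took 58.9% to 68.3% of the summed counts in the control samples and was the most counted marker in 3 of the 4 stress samples, at 39.6% to 50.8%. In stress replicate 2 the most counted eosinophil marker was Alox15, at 53.6%. The summed level of the eosinophil markers was 8.67 to 10.5 CPM in the control group and 6.91 to 10.8 CPM in the stress group, and these ranges overlapped.

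Ratios of 2 markers within a sample do not depend on the library scaling, and 5 were compared with exact permutation tests over all 70 assignments of the samples, for which 0.0286 is the smallest two-sided p that 4 against 4 allow. The log2 ratio of Hdc to Cpa3 averaged 4.54 ± 0.942 in the control samples and 6.79 ± 0.791 in the stress samples (SD, n = 4 each). It was higher in 4 of 4 stress samples than in any control sample, with a difference of 2.25 (two-sided exact permutation p = 0.0286, 0.143 after adjustment over the 5 ratios), and so it did not pass the correction. The log2 ratio of Hdc to Mcpt8 differed by 1.46 with overlapping groups (exact permutation p = 0.343, adjusted 0.75). The ratio of Alox15 to Ccr3 differed by 0.29 (exact permutation p = 0.6, adjusted 0.75), that of Ms4a2 to Fcer1a by -0.69 (exact permutation p = 0.486, adjusted 0.75), and that of Ccr3 to Mcpt8, an eosinophil gene over a basophil gene, by -0.09 (exact permutation p = 0.886, adjusted 0.886). With each library left out in turn, the difference ran from 1.88 to 2.56 for Hdc to Cpa3, from 0.80 to 2.35 for Hdc to Mcpt8 and from -1.26 to -0.08 for Ms4a2 to Fcer1a. The ratios with Mcpt8 rest on 0 to 10 counts of that gene and those with Fcer1a on 0 to 15, with a pseudocount of 0.5. At such counts a ratio depends on the pseudocount and the library's depth. With a pseudocount of 5 the difference was 0.94 for Hdc to Mcpt8 and 1.81 for Hdc to Cpa3. It was then 0.26 for Alox15 to Ccr3, -0.55 for Ccr3 to Mcpt8 and -1.03 for Ms4a2 to Fcer1a. The lowest adjusted p was again 0.143 (exact permutation).

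To compare levels between genes, CPM was divided by the exon length in kilobases. In the control group the order of the levels in CPM per kilobase was Il5ra at 1.69 ± 0.0540 (SD, n = 4), Hdc at 1.56 ± 0.560, Alox15 at 0.760 ± 0.130, Ccr3 at 0.521 ± 0.160, Ms4a2 at 0.308, Cpa3 at 0.272, Fcer1a at 0.212, Mcpt8 at 0.0789, Prg2 at 0.0695 and Epx at 0.00354. No neighbours in this order were apart, since the sample ranges of each pair overlapped. In the stress group Hdc came first at 5.33 ± 0.422 CPM per kilobase (SD, n = 4), apart from Alox15 at 1.25 ± 0.746, which overlapped Il5ra at 0.954 ± 0.193. Il5ra was in turn apart from Ccr3 at 0.617 ± 0.119. The other 6 markers were between 0.0139 and 0.208 CPM per kilobase, and each overlapped its neighbour.

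**Figure D2:**
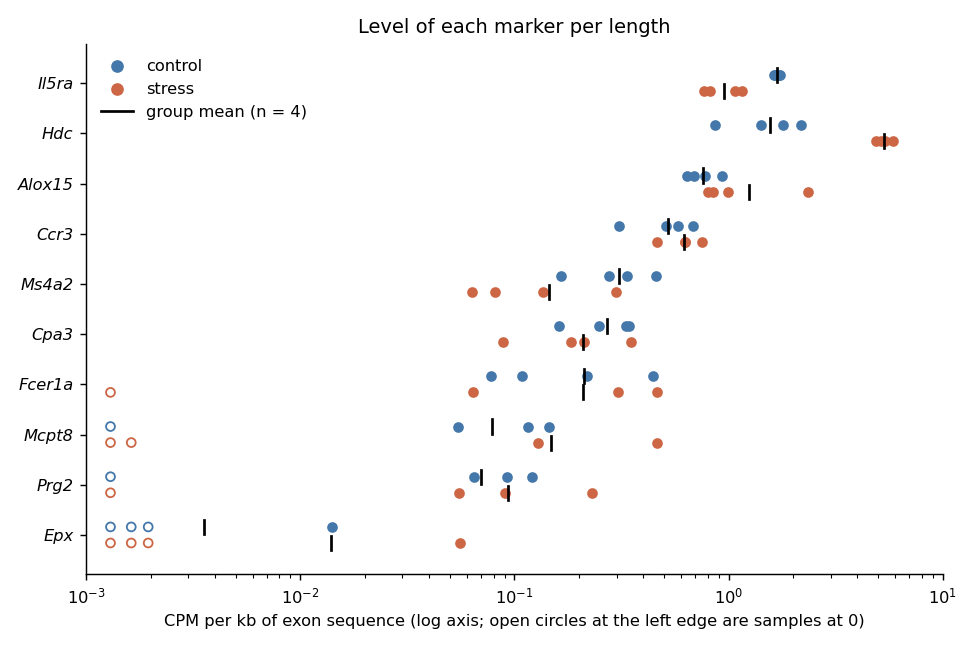
Level of the 10 markers in CPM per kilobase of exon (log axis) in the control and the stress group, ordered by the control mean. Filled circles are samples, open circles at the left edge are samples at 0 and black bars are the group means (n = 4). Hdc shares the top of the order with Il5ra in the control samples and stands alone at 5.33 CPM per kilobase in the stress samples.

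The direction of the fitted change of Ccr3 and Alox15 depended on how libraries were scaled. Across all tested genes the median log2 fold change was -0.03 after TMM, -0.43 when libraries were scaled by the counts outside haemoglobin genes and -0.82 when they were scaled by total counts. Hdc was higher in the stress group under all of these, with a log2 fold change of 1.43 (edgeR, adjusted p = 0.000147) outside haemoglobin and 1.10 (edgeR, adjusted p = 0.0129) by total counts, where the adjusted p no longer met the threshold of the call. Il5ra was lower under all of these, at -1.20 (edgeR, adjusted p = 0.00273) and -1.57 (edgeR, adjusted p = 0.0043), and was then called. The call count of the markers was thus 1 higher and 1 lower outside haemoglobin, and 0 higher and 1 lower by total counts. By total counts all 6 B cell markers were also called lower. The share of all tested genes called under these 2 scalings is not given here, so the counts do not set the markers apart from other genes. Ms4a2 passed an adjusted p of 0.05 under both, at -1.43 (edgeR, adjusted p = 0.0257) and -1.83 (edgeR, adjusted p = 0.0115). Ccr3 turned to -0.15 and -0.53, and Alox15 to 0.28 and -0.16, none of them past the test. Cpa3 kept its direction, at -0.89 (edgeR, adjusted p = 0.181) and -1.32 (edgeR, adjusted p = 0.0639). Relative to the median of all genes under total counts, the changes were 1.92 for Hdc, 0.66 for Alox15, 0.29 for Ccr3, -0.50 for Cpa3, -0.75 for Il5ra and -1.01 for Ms4a2, close to the TMM values.

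**Figure D3:**
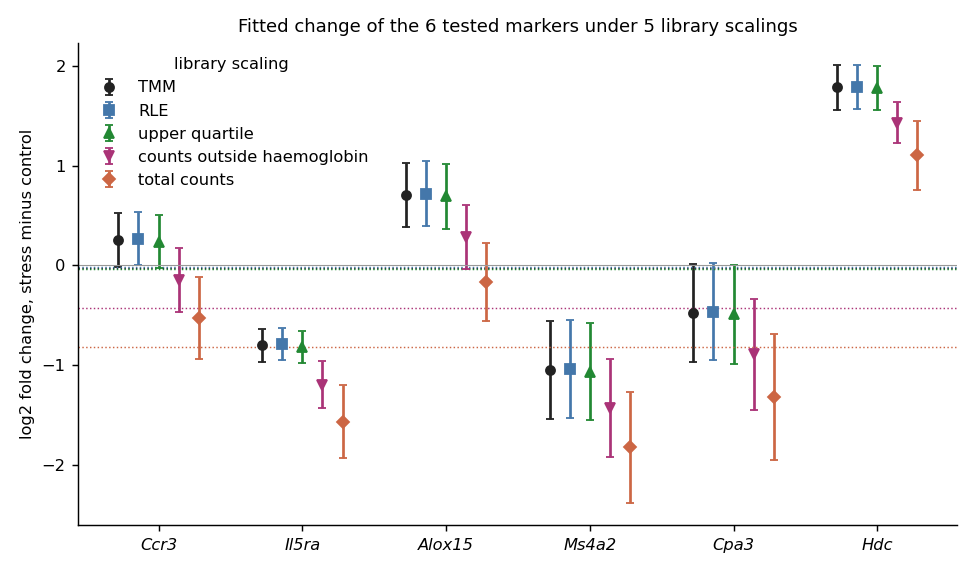
Fitted log2 fold change (stress minus control) of the 6 tested markers under 5 library scalings; bars are SE and dotted lines are the median change of all tested genes under each scaling, in its colour. Hdc is higher and Il5ra lower under each of the 5, while Ccr3 and Alox15 cross 0 between scalings.

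Other genes of the same lineages were compared in the same way. Of all tested genes, 1.69% were called higher and 10.4% were higher at an adjusted p below 0.05. Of 8 other eosinophil markers, 3 were tested, with 1 past an adjusted p of 0.05, 0 called and a median log2 fold change of 1.11, against -0.03 over all tested genes. Outside haemoglobin this median was 0.72, against -0.43, and by total counts 0.34, against -0.82. Siglecf, a lectin of the eosinophil surface, rose from 0.891 ± 0.339 to 1.91 ± 0.520 CPM (SD, n = 4 each), a log2 fold change of 1.12 ± 0.34 (SE, edgeR, adjusted p = 0.0424), which passed an adjusted p of 0.05 in 8 of 17 alternatives, 2 of them among the 8 that leave out a library, and was 0.37 by total counts (edgeR, adjusted p = 0.479). Cebpe, a transcription factor of granule genes in eosinophils and neutrophils, had 1.11 ± 0.46 (SE, edgeR, adjusted p = 0.117), and the ribonuclease gene Ear2, one of a family of similar copies, had -0.51 ± 0.26 (SE, edgeR, adjusted p = 0.198). Ear2 was lower past an adjusted p of 0.05 without stress replicate 1, its highest stress sample (-0.84, edgeR, adjusted p = 0.0289), outside haemoglobin (-0.90, edgeR, adjusted p = 0.0133) and by total counts (-1.27, edgeR, adjusted p = 0.0108). The granule genes Prg3, Ear1, Ear6 and Ear10 had at most 6 counts in any library. Of 8 other basophil markers, 4 were tested, with 1 called higher and a median of 0.30, which was -0.11 outside haemoglobin and -0.50 by total counts. The called gene was Gata2, a transcription factor of basophils, mast cells and platelet precursors, which rose from 6.31 ± 0.257 to 13.1 ± 2.69 CPM (SD, n = 4 each, log2 fold change 1.05 ± 0.15 SE, edgeR, adjusted p = 0.00106). It stayed called in 7 of 8 fits with a library left out, and by total counts its log2 fold change was 0.27 (edgeR, adjusted p = 0.503). Cd200r3, a receptor of the basophil and mast cell surface, had 0.685 ± 0.299 and 0.703 ± 0.177 CPM (SD, n = 4 each, log2 fold change -0.01 ± 0.41 SE, edgeR, adjusted p = 0.99). Slc18a2, the transporter that loads histamine into granules, had 0.31 ± 0.15 (SE, edgeR, adjusted p = 0.175), and the IL-3 receptor gene Il3ra had 0.28 ± 0.22 (SE, edgeR, adjusted p = 0.414). The protease gene Prss34 had 0 to 8 counts in the control libraries and 0 in the stress libraries.

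Mast cells share Hdc, Cpa3, Ms4a2 and Fcer1a with basophils. Of 10 listed mast cell markers, 9 were in the table, 4 were tested and 0 passed an adjusted p of 0.05 with edgeR or DESeq2, with 1 lower at an unadjusted p below 0.05 by each (median log2 fold change -0.53). By total counts 2 of them were lower at an adjusted p below 0.05. The median of all tested genes was then -0.82, and the share of all tested genes lower is not given here. The defining protease genes Mcpt1 and Mcpt4 and the receptor gene Mrgprb2 were at 0 in all 8 libraries. Cma1, another mast cell protease gene, had -1.01 ± 0.42 (SE, edgeR, adjusted p = 0.122), and Hpgds, the prostaglandin D synthase gene, had -0.90 ± 0.45 (SE, edgeR, adjusted p = 0.188). Of 4 tested histamine genes 0 passed an adjusted p of 0.05 with edgeR or DESeq2 and 1 was higher at an unadjusted p below 0.05 by each (median 0.34, and -0.39 by total counts). This 1 was Hnmt, which encodes the methyltransferase that inactivates histamine (1.47 ± 0.56 SE, adjusted p = 0.0961).

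Receptor chains and signalling genes around the markers were described with the same fit, and by total counts none of them passed an adjusted p of 0.05 as higher. By total counts 5 of the 13 IgE receptor signalling genes passed it as lower. So did 1 of the 9 genes of signalling by IL-3, IL-5 and GM-CSF. The share of all tested genes lower by total counts is not given here, and their median was -0.82. These counts thus do not set the lists apart from other genes. After TMM, 47.1% of all tested genes had a fitted change above 0. Of them, 10.4% were higher at an adjusted p below 0.05 and 1.69% were called higher. Among 13 genes of IgE receptor signalling, all tested, 9 had a fitted change above 0 and 4 below, and 3 passed an adjusted p of 0.05, with 0 called and a median of 0.13, which became -0.27 outside haemoglobin and -0.64 by total counts. The 3 were Fcer1g, the gamma chain that the IgE receptor shares with IgG receptors (0.83 ± 0.15 SE, edgeR, adjusted p = 0.00299), the adaptor gene Gab2 (0.96 ± 0.24 SE, edgeR, adjusted p = 0.0198) and the kinase gene Lyn (0.49 ± 0.11 SE, edgeR, adjusted p = 0.0124). On the same scale the beta chain Ms4a2 had a fitted change of -1.05 that did not pass the test. By total counts Fcer1g was at 0.04 (edgeR, adjusted p = 0.921). Among 9 genes of signalling by IL-3, IL-5 and GM-CSF, 8 had a fitted change above 0, 3 passed an adjusted p of 0.05 and 2 were called, with a median of 0.54, which became 0.17 outside haemoglobin and -0.17 by total counts. The called genes were Csf2rb (1.13 ± 0.18 SE, edgeR, adjusted p = 0.00241) and Csf2rb2 (1.27 ± 0.27 SE, edgeR, adjusted p = 0.00894), which encode the beta chain shared by the IL-3, IL-5 and GM-CSF receptors and the beta chain particular to the mouse IL-3 receptor, and the third was the kinase gene Pim1 (0.68 ± 0.16 SE, edgeR, adjusted p = 0.0151). Because Csf2rb and Csf2rb2 are near-identical, how counts divide between the pair is uncertain. On the TMM scale the alpha chain of the IL-5 receptor, Il5ra, was lower and the beta chain that works with it, Csf2rb, which neutrophils and monocytes also carry, was higher. With each library left out in turn, Csf2rb stayed called in 6 of 8 fits (not without control replicate 2, at an adjusted p of 0.0104 with edgeR, or stress replicate 4, at a log2 fold change of 0.96) and Csf2rb2 in 2 of 8 (those without control replicate 4 and stress replicate 2). Lyn, Gab2 and Pim1 passed an adjusted p of 0.05 in 7 of 8 such fits, and without control replicate 2 their adjusted p was 0.0590, 0.0566 and 0.0609 (edgeR). By total counts Csf2rb was at 0.46 (edgeR, adjusted p = 0.244) and Csf2rb2 at 0.57 (edgeR, adjusted p = 0.166).

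Alox15 belongs to a group of 11 lipoxygenase and leukotriene genes other than itself, of which 8 were tested, 7 had a fitted change above 0, 6 passed an adjusted p of 0.05 and 3 were called, with a median of 0.98, which stayed above 0 outside haemoglobin (0.60) and by total counts (0.21, with 0 passing higher). They included Alox5ap, the activating protein of leukotriene synthesis (1.06 ± 0.17 SE, edgeR, adjusted p = 0.00186), Cysltr2, a receptor for cysteinyl leukotrienes (1.05 ± 0.18 SE, edgeR, adjusted p = 0.0025), Ltb4r1, a receptor for leukotriene B4 (1.34 ± 0.29 SE, edgeR, adjusted p = 0.0096), and the platelet lipoxygenase gene Alox12 (0.92 ± 0.17 SE, edgeR, adjusted p = 0.00402). With each library left out in turn these 4 passed an adjusted p of 0.05 in all 8 fits, but Alox5ap and Cysltr2 were called in 5 of 8 and Ltb4r1 in 1 of 8. Over all tested genes after TMM, 47.1% had a fitted change above 0. The share higher at an adjusted p below 0.05 was 10.4%, and 1.69% were called higher. Of 10 transcription factors of these lineages, all 10 had a fitted change above 0, 6 passed an adjusted p of 0.05 and 2 were called, with a median of 0.73, which became 0.34 outside haemoglobin and -0.03 by total counts. Besides Gata2, these included Cebpa (1.25 ± 0.25 SE, edgeR, adjusted p = 0.00725), Gata1 (0.89 ± 0.16 SE, edgeR, adjusted p = 0.00319) and Spi1 (0.78 ± 0.13 SE, edgeR, adjusted p = 0.0025), all of which other blood cells transcribe too. These 3 also passed an adjusted p of 0.05 in all 8 fits with a library left out, and Cebpa was called in 3 of them. The ligands were hardly measured in blood. Of 12 eotaxin and type 2 cytokine genes only Ccl5 was tested (0.06), and Il3, Csf2, Ccl24, Ccl7 and Tslp were at 0 in all 8 libraries.

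Markers of other blood cells moved between the groups, and some of these cells also transcribe the genes described. Of all tested genes, 47.1% had a fitted change above 0. At an adjusted p below 0.05, 10.4% were higher and 3.69% lower. The shares called higher and lower were 1.69% and 0.0171%. Neutrophils transcribe Hdc, and of 16 neutrophil markers 13 were tested, all 13 with a fitted change above 0, 10 past an adjusted p of 0.05 and 9 called, with a median log2 fold change of 1.49. Their summed level was 200.1 to 392.7 CPM in the control group and 621.9 to 918.3 CPM in the stress group. Of 10 classical monocyte markers all 10 had a fitted change above 0, 9 past an adjusted p of 0.05 and 8 called (median 1.76), with sums of 331.0 to 456.2 CPM and 703.3 to 1229 CPM. All 8 platelet markers passed an adjusted p of 0.05 in the same direction and 3 were called (median 0.99), with sums of 1222 to 1822 CPM and 2722 to 3480 CPM. A subset of B cells carries the IL-5 receptor, and of 6 B cell markers all 6 had a fitted change below 0, 3 past an adjusted p of 0.05 and 0 called (median -0.42), with sums of 788.9 to 985.8 CPM in the control group and 558.9 to 733.6 CPM in the stress group. Of 6 T cell markers 0 passed an adjusted p of 0.05 with edgeR or DESeq2 and 0 an unadjusted p of 0.05 (median -0.06), and their sums were 214.7 to 248.7 CPM and 202.6 to 257.3 CPM. By total counts the medians were 0.74 for neutrophil, 0.99 for monocyte, 0.22 for platelet, -1.21 for B cell and -0.88 for T cell markers. The median of all tested genes was then -0.82. At an adjusted p below 0.05 (edgeR), 4 T cell markers were lower by total counts and 3 outside haemoglobin. All 6 B cell markers were lower under both. The share of all tested genes lower under these scalings is not given here. The part of neutrophils, monocytes and platelets in the results for Hdc, Siglecf, Gata2 and the receptor and lipoxygenase genes, and of B cells in that for Il5ra, was not tested.

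**Figure D4:**
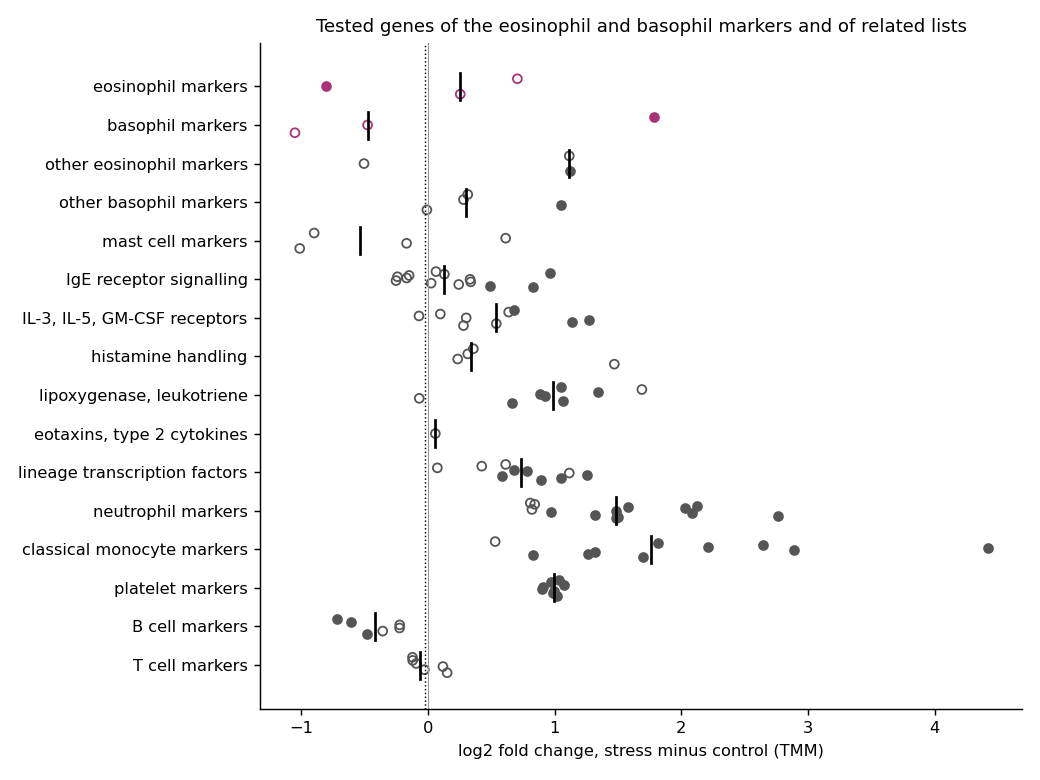
Fitted log2 fold change (stress minus control) of each tested gene in each list, with the list's median as a bar, on the TMM scale. Filled circles passed an adjusted p of 0.05 and open circles did not, the dotted line is the median of all tested genes at -0.03, and the neutrophil, monocyte and platelet markers lie above 0 and the B cell markers below 0, while the 3 eosinophil and 3 basophil markers described spread from -1.05 to 1.78.

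The genes whose log2 CPM followed a marker most closely over the 8 samples were named for Hdc and Ccr3, as a description in which all points share the same libraries. For Hdc they were Gsr, the gene of glutathione reductase (Pearson's r = 0.997), Dgat2, an enzyme of triglyceride synthesis (r = 0.997), Tnfsf14, a cytokine of the TNF family (r = 0.992), Pla2g7, a lipase that inactivates platelet-activating factor (r = 0.991), and Sap30l (r = 0.989). Their log2 fold changes were 1.01, 1.77, 1.18, 1.20 and 0.51, so that they share with Hdc the difference between the groups. Within the control samples alone r was 0.969 (Tnfsf14) to 0.996 (Dgat2). Within the stress samples alone it was 0.466 (Dgat2) to 0.959 (Pla2g7). For Ccr3 they were Slc27a3 (r = 0.928), Dhdds (r = 0.885), LOC102639505 (r = 0.871), Klhl26 (r = 0.871) and AI467606 (r = 0.871), and none of these 5 passed the test between the groups. None of the other eosinophil and basophil marker lists' genes was among these 10.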

How the data were processed

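Peripheral blood RNA from 4 control and 4 stress samples was sequenced. The table the authors deposited holds whole-number read counts per gene, which were not normalized. The submitters' processing notes name HISAT2, featureCounts and the mm10 build (GRCm38). Their versions, the annotation and whether strand was used are not given in the sources used here. Prevalent even counts would arise if mates were counted separately, which was not tested. Genes reaching 10 counts in 4 or more samples were fitted in R 4.3.3 with edgeR 4.0.16 (TMM, robust quasi-likelihood, Benjamini-Hochberg adjustment over 11718 genes). The SE of a log2 fold change was its size over the square root of F. Lengths and coordinates come from GENCODE M21 and promoters from RefSeq. Samples were grouped by their labels, with no covariate. The marker names, the gene lists and the tests were chosen with earlier results of these data known. The rule for named genes took all markers, the called genes of each list and, in each direction, up to 3 of its genes by smallest p, and the 5 genes most like Ccr3, Mcpt8 and Hdc. Of these the text names some, and those like Mcpt8 are left out, as it has at most 10 counts. Other tested genes of the eosinophil, basophil and mast cell lists, and genes at or near 0, were named after their values were seen. The script was tested on simulated data. Replicate numbers did not pair the samples.

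Alternatives were other scalings, other count filters, DESeq2 1.42.0, removal of the haemoglobin genes, a replicate block, a ratio pseudocount of 5 and leaving out each library. Scaling by the counts outside haemoglobin genes was added after seeing the data.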

Additional observations from a re-analysis of the deposited data

Results flagged for a closer look

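Among 146 groups of 4 samples checked, 7 had 1 sample whose gap to the nearest other sample was too large a part of the group's range by Dixon's 95% limit, and chance alone flags about 1 group in 20. Alox15 in stress replicate 2 was at 5.80 CPM, with the nearest stress sample at 2.43. Epx was at 0.0387 CPM in control replicate 2 and at 0.152 CPM in stress replicate 3, with the other samples of each group at 0, and each of these values is 2 counts. Ear2, an eosinophil ribonuclease gene, was at 4.28 CPM in stress replicate 1 and at most 2.13 CPM in the other stress samples. In control replicate 3, the monocyte marker Ccr2 was at 16.9 CPM, with the nearest control sample at 11.5, and the macrophage receptor gene Msr1 was at 0.737 CPM, with the nearest at 0.600. The log2 ratio of Ccr3 to Mcpt8 was 6.74 in control replicate 4, which had 0 Mcpt8 counts, and the nearest control sample was at 4.16.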

How the results depend on the processing

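Hdc kept its direction in all 17 alternatives and was called in 16, and Il5ra kept its direction and an adjusted p below 0.05 in all 17. Under total counts, 0 markers were called higher, 1 lower, and 2 were lower at an adjusted p below 0.05; scaling by counts outside haemoglobin genes also gave 1 called lower and 2 lower at an adjusted p below 0.05. For the genes of the surrounding lists (7 called higher, 0 called lower, 19 higher and 0 lower at an adjusted p below 0.05), these became 0, 1, 0 and 12 under total counts, and 0 called higher, 11 higher and 8 lower outside haemoglobin genes. Both scalings lower all genes together, as their medians show (-0.82 by total counts and -0.43 outside haemoglobin genes). The share of all tested genes passing under them is not given here. These counts thus do not set the markers or the surrounding lists apart from other genes. The values under total counts turned negative for Ccr3 (-0.53), Alox15 (-0.16), Slc18a2 (-0.48), Il3ra (-0.51), Lyn (-0.27), Pim1 (-0.090), Slc27a3 (-0.089), Dhdds (-0.59), LOC102639505 (-0.67), Klhl26 (-0.69), AI467606 (-0.66) and Sap30l (-0.24). Outside haemoglobin genes they did so for Ccr3 (-0.15), Slc18a2 (-0.088), Il3ra (-0.13), Dhdds (-0.21), LOC102639505 (-0.30), Klhl26 (-0.31) and AI467606 (-0.28). Cd200r3 was at 0.0036 with RLE and 0.0088 with DESeq2. With 1 library left out, the called genes of the surrounding lists numbered 1 to 9 (1 without control replicate 2, 2 without control replicate 3, 3 without stress replicate 1 or stress replicate 4, and 4 without stress replicate 3) and those lower at an adjusted p below 0.05 numbered 0 to 2, with 2 without stress replicate 1. The log2 ratio of Alox15 to Ccr3 ran from -0.053 to 0.53, that of Ccr3 to Mcpt8 from -0.77 to 0.72, Cd200r3 from -0.23 to 0.16, LOC102639505 from -0.27 to 0.51 and Klhl26 from -0.0030 to 0.19. The cause of these changes was not tested.

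The replicate numbers of the 2 groups did not pair the samples (correlations of same-numbered samples 0.06, 0.00, -0.04 and -0.16). With a replicate block, 1 marker was called higher and 0 lower, as without it, with Hdc at 1.84 (edgeR, adjusted p = 0.000626), Il5ra at -0.83 (edgeR, adjusted p = 0.0161) and Cd200r3 at 0.12. DESeq2 gave no adjusted p for Prg2, Epx and Mcpt8, and with at most 10 counts per library the depth limits what can be said of these 3 genes.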
